A study of Homo sapiens with 27 samples.

Results

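HepG2 is an established human line grown from a liver tumour, and it was compared here with 8 other established lines. The members were the 3 libraries whose cell line label is HepG2, out of 27 libraries in all, and they were set against the 24 libraries of the other 8 labels, 3 libraries per line. Messenger RNA was selected by its poly-A tail and sequenced from cultures for which the labels name no treatment. The other lines carry the tissue labels skin (SK-Mel 24 and SK-Mel 28), bone (U2-OS), lung (A549), brain (U251), colon (Caco2), kidney (RT4) and epithelial (BJ). HepG2, Caco2, SK-Mel 28 and U251 were all grown in EMEM with 10% serum, SK-Mel 24 in EMEM with 15% serum, A549 and BJ in DMEM, and RT4 and U2-OS in McCoy medium, the last 4 with 10% serum. The design text calls the 3 libraries of a line biological replicates. The titles of the HepG2 libraries spell the line Hep2G. Since HepG2 is 1 line from 1 tumour, what belongs to liver, to that tumour and to its growth in culture cannot be told apart.

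Hepatocytes, the main cells of the liver, make most proteins of the blood plasma, package fat into lipoproteins, make bile acids, detoxify drugs, and turn amino acid nitrogen into urea. A small set of transcription factors, among them HNF4A, the FOXA proteins and CEBPA, is known to keep these genes active together. HepG2 is widely used as a stand-in for hepatocytes, and it is known for high secretion of plasma proteins and low activity of many drug-metabolising enzymes.

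The label was checked first against 3 hepatocyte markers. ALB, which encodes serum albumin, was at 9576, 18140 and 16580 TPM in the 3 HepG2 libraries and between 0 and 9.22, with a median of 0.675, in the other 24. APOA1, the main protein of high-density lipoprotein, was at 7417, 15310 and 9944 TPM against values between 0 and 224.1, with a median of 0.601. APOB, the scaffold of very low density lipoprotein, was at 414, 335 and 518 TPM, and the highest of the other libraries had 22. The 3 markers were high in every HepG2 library, and their levels did not overlap those of any other line. TPM is a level per transcript length, and is given here rescaled so that nuclear genes have the same total in each library. The fit on counts also used a scaling factor per library, 0.799 to 0.816 in HepG2 and 1.02 to 1.12 in Caco2. Fitted differences therefore need not match ratios of these TPM. Levels are followed by SD over the 3 libraries of a line where a mean is given.

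The HepG2 libraries stood apart from the rest in their mitochondrial RNA, their transcript length and 1 replicate. Genes of the mitochondrial chromosome took 71.06%, 33.77% and 32.56% of the estimated counts in HepG2 replicates 1, 2 and 3, against 0.928% to 5.72% in the other 24 libraries. The counts left on nuclear genes were 9186763, 13343355 and 14336611, against 14568724 to 29848911 elsewhere. Nuclear copies of mitochondrial genes, 15 of which could be tested, took 15.69%, 3.116% and 3.177% of nuclear TPM in HepG2 and at most 0.336% in any other library. All 15 were among the genes counted below as enriched, and whether their reads came from the mitochondrial genes was not tested. The mean effective transcript length, weighted by TPM, was 1043, 954 and 963 bases in HepG2 and 1121 to 1549 in the other libraries. In 5 bins of equal size by effective length, the genes tested had median log2 differences from the mean of the other lines of 0.50, 0.17, -0.09, -0.44 and -0.67 from shortest to longest. Spearman's rho across genes was 0.980 between HepG2 replicates 2 and 3, and 0.950 and 0.954 between replicate 1 and each of them. Their part in the results below was not tested, and the larger changes without replicate 1, without these copies or with a length trend fitted are given with the results they touch.

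**Figure D1:**
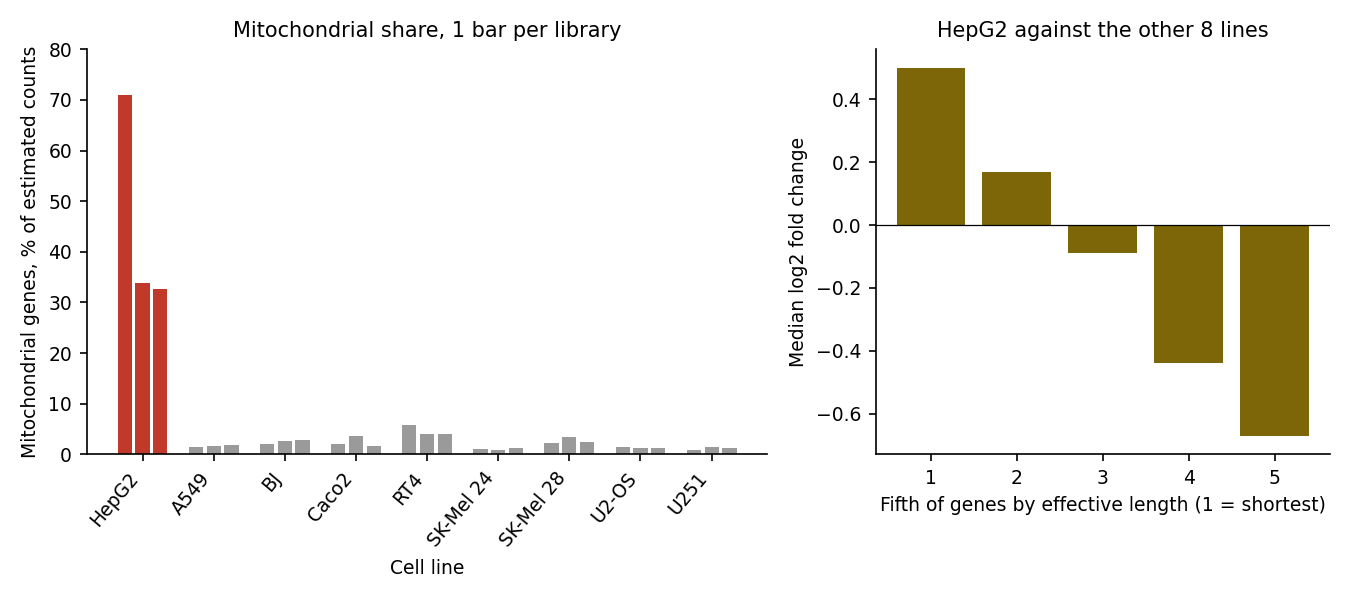
Left, share of estimated counts on mitochondrial genes (percent), 1 bar per library, for HepG2 and the other 8 lines, and right, median log2 difference between HepG2 and the mean of the other 8 lines in 5 bins of the genes tested by effective length. HepG2 replicate 1 reaches 71.06% and every library of the other lines lies at or under 5.72%, and the medians fall from 0.50 in the bin with the shortest transcripts to -0.67 in the bin with the longest.

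Taken over all genes, HepG2 differed from the other lines in about as many genes upward as downward. Genes far above every other line outnumbered those far below, but not in the bin of longest transcripts or the bin next to it. Of 17280 nuclear genes with enough counts, 4582 (26.5%) were higher in HepG2 than the mean of the other 8 lines and 3994 (23.1%) were lower, at an adjusted p under 0.05 and a log2 difference of at least 1. A total of 692 genes (4.00%) were HepG2-enriched, that is, with a fitted level 4-fold or more over the next line and over each of the 8 lines by test. A further 346 genes (2.00%) were HepG2-depleted, at least 4-fold below the next lowest line by the same rule. A gene read in HepG2 alone could pass the count filter, while a depleted gene had to be read in all 8 other lines. The numbers enriched and depleted are therefore not on equal terms. In the bin of shortest transcripts, 1317 genes were higher, 419 lower, 248 enriched and 45 depleted. In that of the longest, 614 were higher, 1238 lower, 72 enriched and 102 depleted. In the bin next to the longest, 692 were higher, 1002 lower, 80 enriched and 82 depleted. Against Caco2 alone, 3841 genes (22.2%) were higher in HepG2 and 4173 (24.1%) lower. Numbers of list members called below are to be read beside these shares. A member that passed the count filter through HepG2 alone could hardly be called anything but higher. Over all genes tested, the median log2 difference from that mean was -0.13. This difference gives each line the same weight on a log scale, so a line without reads pulls the mean down, and a gene can be higher than the mean without being highest in HepG2. For a gene with under 3 counts in the 3 libraries of a line, that line was set at 3 counts, and the difference is then called floored. Over all genes tested, the floored median was -0.03.

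Enriched genes were a small part of the gene count and a larger part of the nuclear TPM. Genes of the mitochondrial chromosome are outside this total. Before rescaling they held 789700, 423300 and 417500 TPM in HepG2 replicates 1, 2 and 3, so shares of all RNA would be smaller. They took 31.73%, 21.74% and 19.9% of nuclear TPM in HepG2 replicates 1 to 3, against 0.47% to 1.72% in every other library. Without the nuclear copies of mitochondrial genes the shares were 16.06%, 18.62% and 16.73%, against 0.378% to 1.47%. Their median level was 15.48 TPM in HepG2 and 1.711 TPM in the highest other line. Of the 692, 152 reached 100 TPM in HepG2. Caco2 was the next highest line for 290 of them, U2-OS for 84 and RT4 for 81. Depleted genes had a median of 0.1288 TPM in HepG2 and 3.194 TPM in the lowest other line, and 160 of the 346 were under 0.1 TPM in HepG2. Both rules picked genes by their level against every other line, so the direction of these shares and medians was fixed by that choice.

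Membership of the enriched set depended on 1 setting above others. With the P number of the titles added as a block, 27 of the 89 enriched genes named in the text no longer met the rule, among them TF, FGB, BPIFB2, DLK1, F11, SAA4, SERPINA11, SERPINF2, SPHAR, CRYAA, CRYAA2, C4A, C8A, C8B, CYP3A7, CYP7A1, ABCG5, ABCG8, G6PC, PCK1, OTC, LIN28B, TRIM71, NKD1 and ONECUT2. Of the 28 depleted genes named, 4 were lost, SOCS3 and C7orf55-LUC7L2 among them. DESeq2 lost 8 enriched genes, APOB, C8B, CRYAA, DLK1, G6PC, OTC, SERPINA7 and SPHAR. Leaving out HepG2 replicate 1 lost NFIA and ONECUT2.

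**Figure D2:**
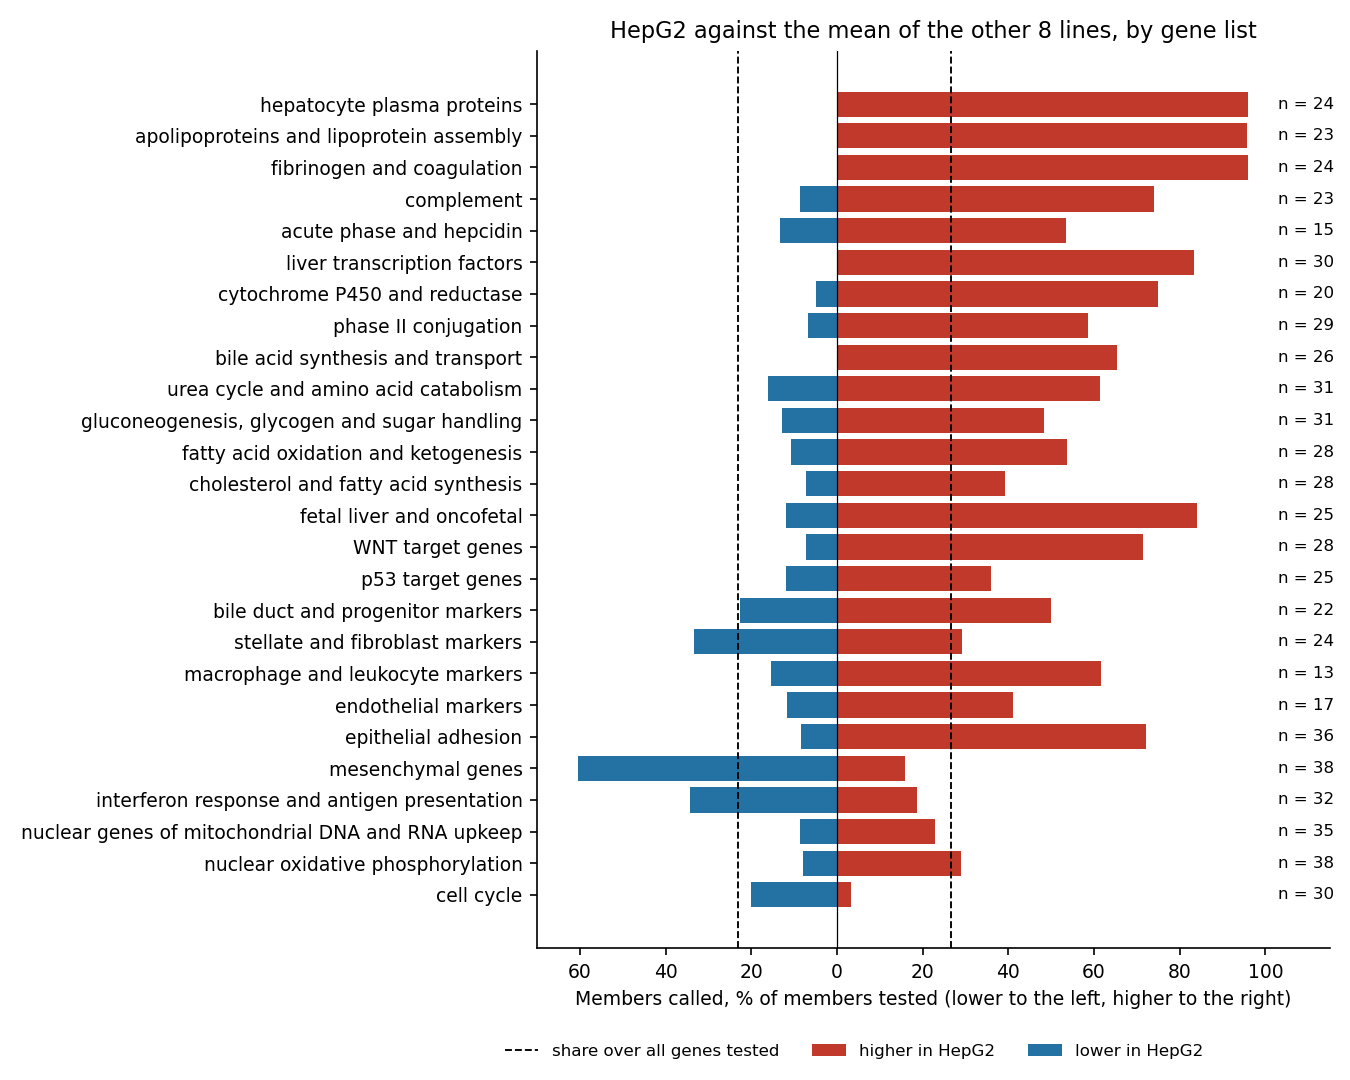
Members higher (bars to the right) and lower (bars to the left) in HepG2 than the mean of the other 8 lines, as a percent of the members tested, for each of 26 gene lists, with the number tested (n) and dashed lines at the shares over all genes tested (26.5% and 23.1%). The bars for plasma proteins, apolipoproteins and coagulation reach farthest to the right, and that for mesenchymal genes farthest to the left.

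Among enriched genes above 5 TPM, the 12 with the greatest margin over the next line were mostly secreted proteins. BPIFB2, a secreted protein of the lipid-binding family of bactericidal proteins, held 49773 counts in HepG2 and 11 in the next line, a ratio of 11110 after scaling for depth (95% exact interval 6210 to 22260). DLK1, a membrane protein of fetal liver cells related to NOTCH ligands, held 10869 counts against 3, a ratio of 8898 (3044 to 43150). ALB held 739330 counts, with Caco2 the next line, a ratio of 5742 (5100 to 6489). These intervals cover counting error only. APOC2, the cofactor of lipoprotein lipase, had a ratio of 2520 (1720 to 3859), SERPINA7, the carrier of thyroid hormone, 1306 (709.5 to 2724), and SAA4, a serum amyloid protein of lipoproteins, 1187 (679.2 to 2299). SERPINA11, F11 (clotting factor XI) and CRYAA2 had a single count in the next line, and MT1G, a metal-binding protein, had 8. SPHAR and CRYAA, a lens crystallin, had no count in any other line. Set against A549 at a floor of 3 counts over its 3 libraries, they were 173.3-fold and 162.7-fold higher. This floored ratio changes with the depth of the line compared. CRYAA and CRYAA2 are near-identical copies, MT1G belongs to a family of close copies and SPHAR overlaps another gene, so their reads may be shared. MT1G also varied between HepG2 libraries, at 436, 1805 and 89.7 TPM.

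Proteins that hepatocytes secrete into plasma had the highest median difference of the 26 gene lists. Of 26 genes on the list, 24 were tested, 23 were higher in HepG2, 0 lower, and 19 were enriched. Their median log2 difference was 11.02 (11.06 floored), beside -0.13 over all genes. AFP, the fetal counterpart of albumin, was at 1586, 8573 and 5449 TPM in HepG2 and at most 35.5 elsewhere (log2 difference 12.33 ± 0.34 (SE), adjusted p = 3.4e-20). It was lowest in replicate 1, yet that value lay far above all other libraries. ALB and AFP lie next to each other on chromosome 4, together with AFM, another member of the family, in a span of 106.9 kb (73397114 to 73504001 in GENCODE 29 on GRCh 38). AFM was called higher at only 0.907, 0.115 and 0.18 TPM, with 1.54 in the highest Caco2 library. The 4 promoters below belong to enriched genes of secreted proteins and were chosen after their matches were seen, since each holds GTTAAT or its reverse complement ATTAAC, in capitals, letters that were searched for as a motif of liver promoters. They are the 250 bases before the RefSeq start of ALB (chr4:73404037-73404286, plus strand), AFP (chr4:73435971-73436220, plus strand), APOH (chr17:66229416-66229665, minus strand) and FGB (chr4:154562730-154562979, plus strand), from RefSeq on GRCh38.p14.
ALB: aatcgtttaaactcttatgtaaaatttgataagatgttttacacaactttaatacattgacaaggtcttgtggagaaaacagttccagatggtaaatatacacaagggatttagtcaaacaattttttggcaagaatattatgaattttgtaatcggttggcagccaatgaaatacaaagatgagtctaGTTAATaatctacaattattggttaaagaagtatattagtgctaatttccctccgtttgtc
AFP: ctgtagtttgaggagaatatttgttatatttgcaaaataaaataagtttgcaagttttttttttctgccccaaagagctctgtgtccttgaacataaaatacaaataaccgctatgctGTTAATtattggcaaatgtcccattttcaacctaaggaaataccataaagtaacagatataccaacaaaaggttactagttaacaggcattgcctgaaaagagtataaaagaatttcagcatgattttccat
APOH: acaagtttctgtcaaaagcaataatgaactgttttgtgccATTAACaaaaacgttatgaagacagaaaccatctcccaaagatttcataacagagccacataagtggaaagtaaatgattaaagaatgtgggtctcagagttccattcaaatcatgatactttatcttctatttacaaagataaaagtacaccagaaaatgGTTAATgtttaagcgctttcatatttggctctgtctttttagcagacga
FGB: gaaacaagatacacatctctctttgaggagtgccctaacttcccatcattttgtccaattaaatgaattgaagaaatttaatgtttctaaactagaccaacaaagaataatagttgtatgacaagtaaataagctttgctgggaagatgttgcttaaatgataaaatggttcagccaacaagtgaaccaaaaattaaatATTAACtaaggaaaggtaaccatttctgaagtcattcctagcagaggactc
The first base of the match lay 61 bases before the start of ALB, 132 before that of AFP, 210 and 49 before that of APOH, and 51 before that of FGB. Over 300 bases from 250 before to 50 after the start, on both strands, these letters occurred in 6.893% of 27305 RefSeq promoters and in 4.229% of the 12439 promoters of genes tested. The share was 10.9% (45 of 413) for enriched genes and 2.49% for depleted genes. It was 34.78% (8 of 23) for coagulation genes, 20% (4 of 20) for plasma proteins and 17.65% (3 of 17) for apolipoproteins. A match of letters is not a bound site.

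Most other plasma carriers and inhibitors followed the same pattern, and their next highest line was usually Caco2. SERPINA1, the inhibitor of neutrophil elastase, was at 3484, 4507 and 4392 TPM against 492 ± 87.7 TPM in Caco2 (log2 difference 10.46 ± 0.26 (SE), adjusted p = 3.92e-21). TF, the iron carrier transferrin, was at 2747, 4581 and 3634 TPM, and the next value was not in Caco2 but 603 ± 167 TPM in SK-Mel 24. AMBP, the precursor of alpha-1-microglobulin, was at 1148, 1837 and 2093 TPM and at most 21.9 elsewhere. TTR and RBP4, which carry thyroid hormone and retinol, were at 571, 1123 and 1627 TPM and 1014, 2559 and 2252 TPM, against 294 ± 47.8 TPM in Caco2 and 479 ± 144 TPM in Caco2. HP, the haemoglobin-binding haptoglobin, was at 149, 302 and 196 TPM, where no other library passed 1.92. These genes did not overlap with any other line.

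A few plasma proteins were not highest in HepG2. SERPINA3, an acute-phase protease inhibitor, was at 294, 212.0 and 274.2 TPM but averaged 2498 ± 356 TPM in SK-Mel 24. VTN, the adhesion protein vitronectin, was at 113, 194 and 113 TPM in HepG2 and 788 ± 263 TPM in Caco2, the 1 member lower than in Caco2 (log2 difference from Caco2 -1.74 ± 0.44 (SE), adjusted p = 0.00151). CP, a copper carrier, was at 38.1, 57.2 and 39.6 TPM and averaged 113 ± 91.3 TPM in A549. GC, the vitamin D carrier, was listed at 0, 0 and 0.0529 TPM and was too low to test. HRG, a histidine-rich plasma protein, at 0.0767, 0.035 and 0.0739 TPM, was neither higher nor lower. In the serpin cluster of chromosome 14 (94280455 to 94624055), 8 of 9 genes could be tested, all 8 were higher and 7 were enriched, SERPINA3 being the one that was not.

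**Figure D3:**
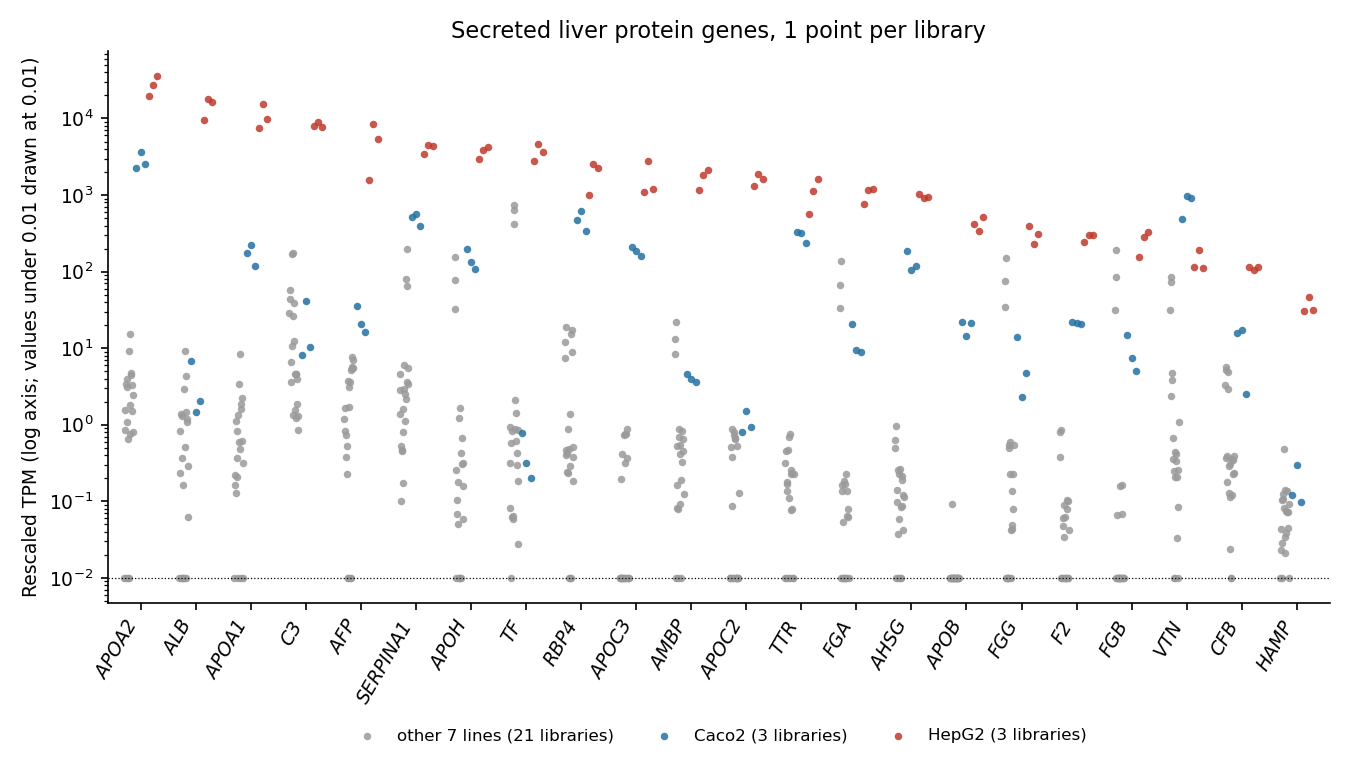
Rescaled TPM on a log axis of secreted liver proteins in each of the 27 libraries, 1 point per library, with HepG2, Caco2 and the other 7 lines in separate colours and the lowest values drawn on the dotted line. VTN is the 1 gene shown whose Caco2 points lie above those of HepG2. The HepG2 points of ALB lie between 9576 and 18140 TPM, and the highest point of any other line is at 9.22.

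Lipoprotein genes were higher in HepG2 almost throughout. Of 26 listed, 23 were tested, 22 were higher, 0 lower and 16 enriched, with a median log2 difference of 8.76 (8.37 floored). Against Caco2, which makes lipoproteins as an enterocyte-like line, 17 were higher and 0 lower. APOA2, the second protein of high-density lipoprotein, had the highest level of the list, at 19630, 27150 and 36060 TPM, and averaged 2838 ± 759 TPM in Caco2. APOH, which binds phospholipids, was at 2999, 3919 and 4214 TPM against 147 ± 46.6 TPM in Caco2. APOC3, an inhibitor of lipoprotein lipase, was at 1101, 2799 and 1199 TPM, and APOE, the ligand of the remnant receptor, at 659, 1795 and 814 TPM. Both were enriched, with 186 ± 24.3 TPM in Caco2 and 362 ± 73.1 TPM in Caco2 as the next values. MTTP, the transfer protein that loads fat onto APOB, was at 16, 13.9 and 12.5 TPM in HepG2 and at most 0.201 elsewhere, Caco2 included (floored log2 difference 9.93, adjusted p = 2.86e-18).

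The apolipoprotein genes of chromosome 11 (116789367 to 116837950) gave 4 of 4 members higher, 3 of them enriched. APOA4, the exception, was at 0.967, 2.67 and 1.63 TPM in HepG2 and 2.55 ± 0.65 TPM in Caco2. In the cluster of chromosome 19 (44905754 to 44949565), 3 of 4 genes, APOE, APOC1 and APOC2, were tested and all 3 were enriched. LPA, which encodes apolipoprotein(a), had no reads in the 3 HepG2 libraries. SAR1B, a coat protein of vesicles that carry lipoproteins, was the 1 tested member with no call. Its TPM was lower in HepG2 (22.8, 18.1 and 22.7) than in every other library, while its fitted log2 difference on counts was 0.16, so its count and TPM differ in direction.

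Coagulation genes divided into a majority of high liver factors and a few that were low or absent. Of 25 listed, 24 were tested, 23 were higher, 0 lower and 16 enriched, with a median of 9.12 (8.76 floored). FGA, FGB and FGG, the chains of fibrinogen, were at 769, 1155 and 1197 TPM, 158, 282.1 and 330.2 TPM and 399.9, 226.6 and 307 TPM. A549 was the next line for each, with 79.4 ± 53.2 TPM in A549, 102 ± 81.7 TPM in A549 and 86.2 ± 58.1 TPM in A549. All 3 genes, within 50.01 kb of chromosome 4 (154562956 to 154612967), were enriched, but FGB in HepG2 replicate 1 lay below the highest A549 library, at 192 TPM, and FGB was not enriched under the P number block. F2, the precursor of thrombin, was at 245, 296 and 298 TPM against 21.3 ± 0.499 TPM in Caco2 (floored log2 difference 11.93, adjusted p = 1.15e-23). SERPINF2, the inhibitor of plasmin, was at 184, 216.6 and 146 TPM and at most 1.9 elsewhere. PROC, the anticoagulant protein C, was at 244, 254 and 144 TPM and at most 3.73 elsewhere. F7, KNG1 and F12, which start or support the clotting cascade, passed as higher than the mean without being highest, since Caco2 had 16.6 ± 3.65, 18.6 ± 9.16 and 4.95 ± 0.445 TPM. PLG, the precursor of plasmin, was low in HepG2, at 2.53, 0.702 and 1.12 TPM, below the 8.93 ± 2.74 TPM in A549. F9, clotting factor IX, had no reads in any of the 27 libraries.

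Complement genes were mostly higher, with a few members absent. Of 26 listed, 23 were tested, 17 were higher, 2 lower, 4 had no call and 12 were enriched (median 6.10, 6.13 floored). Under the P number block 6 were enriched. C3, the central component, was at 7929, 8994 and 7678 TPM against 123 ± 83.8 TPM in RT4 (log2 difference 8.14 ± 0.44 (SE), adjusted p = 2.97e-14). CFB, the protease of the alternative pathway, was at 116.0, 105 and 115.7 TPM and at most 17.2 elsewhere. C4A and C4B were at 81, 111 and 83.4 TPM and 88.2, 113 and 81.6 TPM, but they are near-identical copies, so the split between them is uncertain. C8A and C8B, chains of the membrane attack complex, were enriched at low levels of 3.76, 6.75 and 3.33 TPM and 1.59, 1.83 and 0.84 TPM. C1R, the first protease of the classical pathway, was lower, at 0.559, 0.635 and 0.491 TPM against 1.75 or more elsewhere. C9, the pore-forming component, had no reads in HepG2.

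Acute-phase and iron hormone genes were uneven. Of 19 listed, 15 were tested, 8 were higher, 2 lower and 5 had no call, with a median of 1.11 (1.10 floored), or 1.8 with the length trend. SAA4 and HAMP, the iron hormone hepcidin, were enriched at 68.7, 507 and 283 TPM and 30.8, 46.5 and 31.9 TPM, and so were TFR2 and TMPRSS6, which sense iron upstream of hepcidin. CRP, SAA1 and APCS, the classic acute-phase proteins, had no reads in the 3 HepG2 libraries. SOCS3, the feedback inhibitor of this signalling, was depleted, at 0.27, 0.0292 and 0.0529 TPM against 0.926 ± 0.114 TPM in SK-Mel 28 at the lowest (log2 difference -5.69 ± 0.42 (SE), adjusted p = 1.44e-11). It no longer met the depleted rule when a length trend was fitted for each library or the P number of the title was added as a block.

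The transcription factors of hepatocytes were present in HepG2, and several were shared with Caco2. All 30 factors listed were tested, 25 were higher in HepG2, 0 lower and 9 enriched, with a median of 4.33 (4.22 floored). Without HepG2 replicate 1, 7 were enriched. NR0B2, a repressor in the bile acid pathway, was at 150.4, 182 and 283 TPM and at most 0.578 elsewhere. MLXIPL, which responds to glucose, was at 229.3, 130.2 and 117 TPM against 2.88 ± 1.61 TPM in Caco2 (log2 difference 9.87 ± 0.18 (SE), adjusted p = 1.33e-23). NR1H4, the bile acid receptor, was at 28.4, 52.7 and 57.1 TPM and averaged 6.27 ± 2.42 TPM in A549. CREB3L3, FOXA3, GATA4, NFIA, NR1I2 and ONECUT2 were the others enriched. NR1I2, a receptor for drugs, was at 4.97, 4.23 and 4.83 TPM, where no other library passed 0.0676.

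HNF4A did not set HepG2 apart from the colon line. HNF4A was at 37.1, 33.4 and 34.4 TPM in HepG2 and 59.1 ± 19 TPM in Caco2 (log2 difference from Caco2 0.13 ± 0.22 (SE), adjusted p = 0.625), with a median of 0.0323 over the other 24 libraries. Its mean TPM was lower in HepG2 than in Caco2 while its fitted difference on counts was positive, so count and TPM differ in direction. FOXA2 and CEBPA were higher than in Caco2, at 53.7, 43.4 and 46.1 TPM and 82.5, 153 and 125 TPM against 30.2 ± 12.9 and 68.3 ± 29. GATA6, at 2.28, 3.33 and 3.52 TPM, was lower than in Caco2, which had 61.2 ± 30.6.

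Most of the HNF4A signal lay on the same transcript in both lines. HNF4A-209, which starts at 44355801 on chromosome 20, was at 31.18, 27.5 and 27.2 TPM in HepG2 and 50.63 ± 12.5 in Caco2. HNF4A-201, which starts downstream at 44401284, was at 3.994, 4.197 and 5.155 TPM in HepG2 and 1.29 ± 0.56 in Caco2, and HNF4A-204, which starts beside it at 44401301, was at 0 in HepG2 and 2.671 ± 3.175 in Caco2. Summed over the 4 transcripts with a downstream start, HepG2 had 5.614, 5.816 and 6.802 TPM and Caco2 5.167 ± 3.251, and no test of a difference was made. For IGF2, 1 transcript starting at 2137290 on chromosome 11 held most of the IGF2 signal, at 1297, 1892 and 686.1 TPM in HepG2 and 565.2 ± 178.7 in Caco2. Reads were assigned to transcripts in proportion, and these transcripts also differ elsewhere, so these are levels of whole transcripts and not counts of starts.

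**Figure D4:**
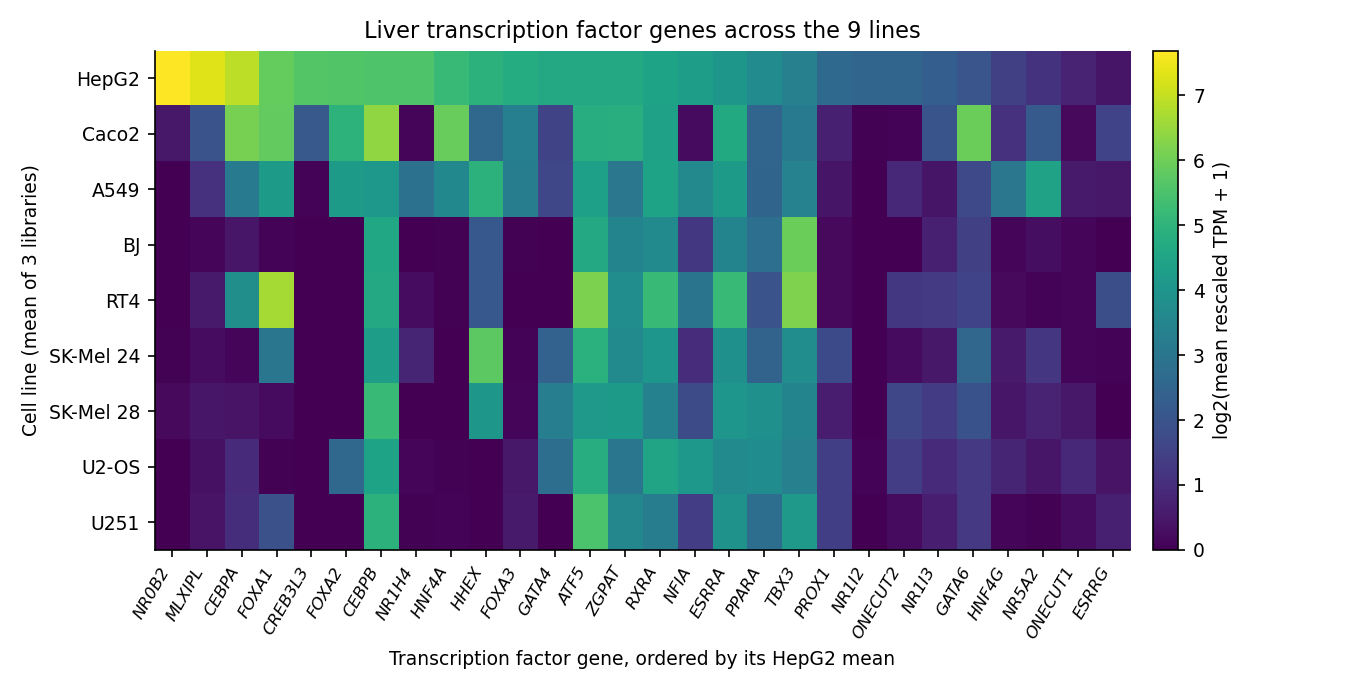
Level of 28 of the 30 liver transcription factor genes, in columns ordered by their HepG2 mean, in each of the 9 lines, in rows, coloured by log2 of the mean rescaled TPM of 3 libraries plus 1. The column of HNF4A is bright in HepG2 and Caco2 and dimmer in A549, and that of NR0B2 in HepG2 alone.

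Drug-metabolising enzymes of the P450 family were often called higher at very low levels. Of 26 P450 genes and their reductase, 20 were tested, 15 were higher, 1 lower and 2 enriched (median 2.41, 2.39 floored), but 11 of 26 reached 1 TPM on average in HepG2 and 5 had no reads. Under the P number block 0 were enriched, so the call of CYP3A7 below was lost. POR, the reductase that feeds electrons to all of these enzymes, was at 209.8, 440.0 and 328 TPM and at most 109 elsewhere (log2 difference 2.60 ± 0.16 (SE), adjusted p = 2.14e-13). CYP3A4, the main drug-metabolising P450 of adult liver, was at 0.288, 0.182 and 0.137 TPM, although called higher. CYP3A7, its fetal counterpart, was at 5.23, 1.32 and 1.52 TPM and enriched. CYP2E1, which oxidises ethanol, was at 0.205, 0.074 and 0.0261 TPM, and CYP2A6, CYP2C8 and CYP2C19 had no reads in HepG2. CYP1A1, which oxidises aromatic pollutants, was lower than in Caco2, at 0.256, 0.548 and 0.335 TPM against 8.17 ± 3.67. CYP2R1, which activates vitamin D in its first step, was depleted, at 0, 0.585 and 0.0434 TPM against 4.42 ± 0.623 TPM in RT4 at the lowest.

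Conjugating enzymes were uneven, also within a family. Of 30 listed, 29 were tested, 17 were higher, 2 lower and 7 enriched (median 2.09), with 4 enriched under the P number block. SULT2A1, which sulfates steroids and bile acids, was at 139, 146 and 223.8 TPM against 22.1 ± 1.57 TPM in RT4, and SULT1A1 was at 124, 113 and 155 TPM against 11 ± 4.71 TPM in U2-OS. UGT1A6, UGT1A9 and UGT2B15, which attach glucuronic acid, had no reads in HepG2, while UGT2B7, at 22, 22.9 and 28.1 TPM, was higher. The UGT and SULT1A genes are close copies of each other, so reads may be shared among them. GSTP1, the glutathione transferase of most cultured cells, was at 1.9, 0.958 and 0.437 TPM in HepG2 against a median of 760.3 elsewhere (log2 difference -8.03 ± 0.42 (SE), adjusted p = 1.28e-14). The mean was as low in RT4 (0.931 ± 0.497 TPM in RT4), and the groups overlapped. NNMT, which methylates nicotinamide, was also lower, at 0.395, 0.44 and 0 TPM against a median of 249.1.

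Key enzymes of bile acid synthesis were enriched at low levels, and importers had few or no reads. Of 28 genes listed, 26 were tested, 17 were higher, 0 lower and 8 enriched (median 3.99, 3.88 floored). Under the P number block 5 were enriched, CYP7A1, ABCG5 and ABCG8 no longer among them. CYP7A1, the rate-limiting enzyme, was at 0.902, 1.45 and 1.39 TPM and at most 0.0417 elsewhere (floored log2 difference 6.71, adjusted p = 3.08e-10). CYP8B1, which sets the share of cholic acid, was at 1.39, 1.9 and 1.65 TPM, and AKR1D1, a later step, at 3.98, 5.54 and 4.55 TPM. All 3 were enriched at these low levels. CYP27A1, of the alternative route, was at 134, 132 and 148 TPM and higher, but SK-Mel 28 averaged more (165 ± 28.2 TPM in SK-Mel 28). FGFR4 and KLB, which together receive the hormone FGF19, were at 144, 176 and 140.1 TPM and 11.1, 11.7 and 18.2 TPM. SLC10A1, the bile acid importer, was listed at 0, 0.0767 and 0 TPM, and SLCO1B1 and the exporter ABCB11 had no reads. ABCG5 and ABCG8, the sterol exporters that work as a pair, were both enriched, at 4.61, 4.66 and 4.8 TPM and 2.65, 4.47 and 4.36 TPM.

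Enzymes of amino acid breakdown were often higher, and those of the urea cycle were uneven. Of 35 genes listed, 31 were tested, 19 were higher, 5 lower and 11 enriched (median 2.18). HPD, an enzyme of tyrosine breakdown, was at 99.1, 166 and 105 TPM and at most 0.853 elsewhere (log2 difference 9.61 ± 0.18 (SE), adjusted p = 2.59e-23). AGXT, which clears glyoxylate, was at 15.2, 37.9 and 30.6 TPM and at most 0.668 elsewhere, and MAT1A, the liver enzyme for S-adenosylmethionine, at 22.1, 30.7 and 23.1 TPM and at most 1.45. MAT2A, the form used outside liver, was lower, at 22.9, 18.4 and 20.2 TPM against 69.2 or more elsewhere, with no overlap.

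Within the urea cycle itself, CPS1, its first enzyme, was at 11.6, 13.2 and 11.8 TPM, within the range of the other libraries (0.0215 to 30.9), although higher than their mean by test. OTC, the second, was at 1.27, 0.613 and 0.435 TPM, enriched but low. ASS1 was at 110.2, 173 and 209.2 TPM and higher than the mean, and ASL at 9.69, 13.6 and 9.24 TPM had no call. ARG1, which releases urea, was at 0, 2.68 and 1.07 TPM and did not pass the count filter. ARG2, the form of other tissues, was at 13.2, 9.11 and 14.3 TPM.

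Sugar metabolism differed in its isozymes. Of 32 genes listed, 31 were tested, 15 were higher, 4 lower, 5 enriched and 2 depleted (median 0.96). Under the P number block 3 were enriched, without G6PC and PCK1. HK1, the hexokinase of most tissues, was depleted, at 0.2, 0.0838 and 0.147 TPM against 6.76 ± 2.55 TPM in Caco2 at the lowest (log2 difference -7.90 ± 0.26 (SE), adjusted p = 1.62e-18). HK2, another hexokinase, was at 15.9, 19.1 and 18 TPM with no call. PPP1R3B, the glycogen-targeting subunit of liver phosphatase, was also depleted, at 0.0538, 0.0401 and 0.0644 TPM against 4.54 ± 0.557 TPM in SK-Mel 24. G6PC and PCK1, the gluconeogenic enzymes, were enriched at 0.524, 2.05 and 0.624 TPM and 1.75, 1.49 and 0.6 TPM, while the mitochondrial PCK2 was at 112, 200.1 and 194 TPM. FBP1, the step between them, was at 0.355, 0.392 and 0.584 TPM and lower than in Caco2, although called higher than the mean of all lines. TKFC, which handles fructose, was enriched at 150.2, 227.9 and 192 TPM against 51.3 ± 7.88 TPM in RT4.

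Genes of fat metabolism were divided. Of 28 genes of fatty acid oxidation and ketogenesis tested, 15 were higher, 3 lower and 3 enriched (median 1.27). FABP1, the liver fatty acid carrier, was at 780.5, 2231 and 1713 TPM against 405 ± 82.1 TPM in Caco2. OXCT1, which lets tissues other than liver burn ketones, was lower, at 0.724, 1.25 and 1.01 TPM against a median of 33. Of 28 genes of cholesterol and fatty acid synthesis tested, 11 were higher, 2 lower and 15 had no call (median 0.58). The shares over all genes were 26.5% higher and 23.1% lower. INSIG1, which retains the sterol sensor in the endoplasmic reticulum, was depleted, at 0.0465, 0 and 0.0722 TPM against 11.2 ± 4.77 TPM in BJ at the lowest (log2 difference -9.31 ± 0.73 (SE), adjusted p = 4.15e-11). ME1, the cytosolic malic enzyme that supplies NADPH, was at 0, 0.0224 and 0 TPM and lower. SOAT2, the sterol esterifying enzyme of liver and gut, was at 20.2, 30.7 and 37.8 TPM and the 1 enriched member.

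Genes of fetal liver and liver tumours were higher in HepG2, several of them shared with Caco2. Of 28 listed, 25 were tested, 21 were higher, 3 lower and 7 enriched (median 4.72, 4.75 floored). Under the P number block 3 were enriched. DLK1 was at 81, 321 and 202.5 TPM and at most 0.248 elsewhere. PEG3, an imprinted zinc finger gene, was at 32.3, 18.8 and 26.4 TPM against 9.38 ± 1.88 TPM in U2-OS, and PEG10, an imprinted gene of retroviral origin, at 1312, 1972 and 2634 TPM against 207.3 ± 83.2 TPM in Caco2. GPC3, a surface proteoglycan used as a liver tumour marker, was at 508, 215.9 and 297 TPM, but Caco2 had 320.1 ± 74.3 TPM. IGF2, the fetal growth factor, was at 1312, 1915 and 691 TPM against 674 ± 198 TPM in Caco2 (log2 difference from Caco2 1.79 ± 0.50 (SE), adjusted p = 0.00314). LIN28B and TRIM71, regulators of early development, were enriched at 5.65, 8.02 and 11.2 TPM and 28.3, 34.8 and 33.3 TPM, although replicate 1 of LIN28B lay below the highest other library (5.84 TPM). HMGA1 and IGF2BP3, also counted as oncofetal, were lower, at 58.5, 47 and 43.8 TPM and 7.49, 2.7 and 2.69 TPM. SPINK1, a trypsin inhibitor, was higher than the mean but far below the 1776 ± 386 TPM of Caco2.

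Targets of WNT signalling, which in liver marks the cells around the central vein, were largely higher. Of 28 tested, 20 were higher, 2 lower and 7 enriched (median 2.66, 2.40 floored). SP5, a transcription factor, was at 114, 151 and 137 TPM against 33.2 ± 15.4 TPM in Caco2 (floored log2 difference 11.02, adjusted p = 5.68e-21). NOTUM and NKD1, feedback inhibitors of the pathway, were at 102, 76.8 and 60.8 TPM and 47.5, 42.5 and 34.3 TPM, against 8.01 ± 6.01 TPM in U2-OS and 16 ± 6.05 TPM in Caco2. AXIN2, another feedback inhibitor, was at 7.81, 3.58 and 3.79 TPM and lower than in Caco2. LEF1, a transcription factor of the pathway, was at 0.35, 0.106 and 0.564 TPM with no call, and CCND1, the cyclin, was lower, at 34, 33.2 and 34 TPM against 78.9 or more elsewhere. Of 25 targets of p53 tested, 9 were higher and 3 lower (median 0.16), beside 26.5% and 23.1% of all genes. With the length trend these became 10 and 1 (median 0.59). MDM2, the ligase that degrades p53, was the 1 enriched target, at 429, 364 and 434 TPM against 94.8 ± 40.5 TPM in RT4 (log2 difference 3.04 ± 0.16 (SE), adjusted p = 1.72e-14). With a length trend fitted for each library it was not enriched.

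The depleted genes with the greatest margins had few or no reads in HepG2. LDHB, the lactate dehydrogenase subunit of oxidative tissues, was at 0.506, 1.31 and 0.304 TPM in HepG2 and at 609.6 TPM or more in all other libraries (log2 difference -10.23 ± 0.31 (SE), adjusted p = 2.21e-19). Over the 3 libraries it held 29 counts against 32573 in BJ, the next lowest line, a ratio of 631.8 (95% exact interval 439.8 to 943.5). SNX19, a membrane-sorting protein, was 387.3-fold lower (165.8 to 1193), GPD2, a mitochondrial glycerol phosphate dehydrogenase, 299.9-fold (128.4 to 924.4), and SRI, a calcium-binding protein, 334.5-fold (130.5 to 1229). GSPT2, a translation termination factor, had no reads in HepG2 and was at least 96.62-fold lower at the floor of 3 counts. RTL8A and GALNT7 held 2 counts each in HepG2. CD44, a hyaluronan receptor, was at 0.564, 1.41 and 0.947 TPM against 85.3 ± 4.32 TPM in Caco2 at the lowest. The remaining 5 of the 12 with the greatest margin, ISY1-RAB43, AC026464.4, C7orf55-LUC7L2, INO80B-WBP1 and ATP5MF-PTCD1, are readthrough transcripts that share sequence with their single genes, so their reads may have been assigned elsewhere. Leaving out Caco2 raised the number of depleted genes to 538.

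**Figure D5:**
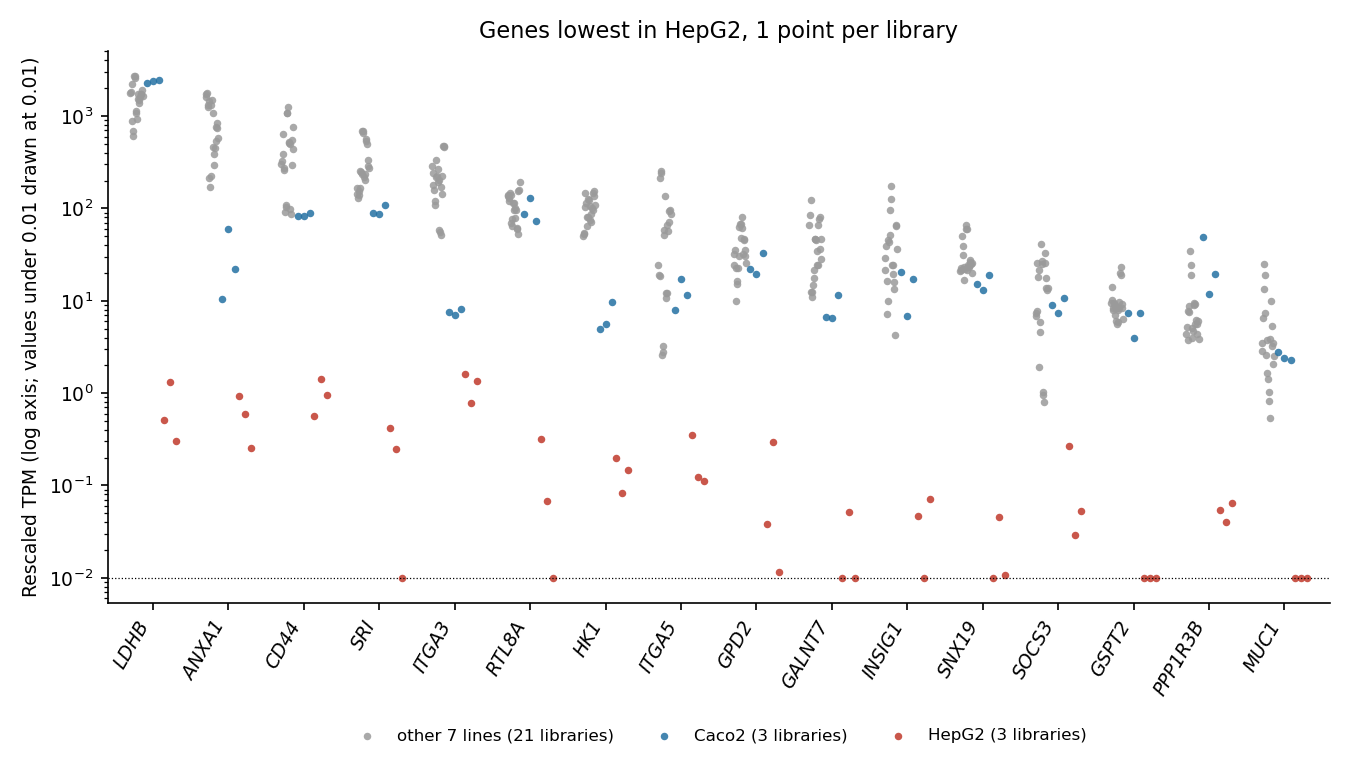
Rescaled TPM on a log axis of genes lowest in HepG2, 1 point per library, with HepG2, Caco2 and the other 7 lines in separate colours. LDHB lies at or under 1.31 TPM in HepG2 and at 609.6 TPM or more in the other lines.

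Many epithelial genes were higher and many mesenchymal genes lower. BJ, although its tissue label is epithelial, had 4.929% to 6.136% of nuclear TPM on the mesenchymal list, against at most 3.375% in libraries of any other line. Of 36 genes of epithelial adhesion tested, 26 were higher in HepG2 and 3 lower, while against Caco2 5 were higher and 21 lower. Without HepG2 replicate 1, 6 were lower. KRT8 and KRT18, the keratins of hepatocytes, were at 1025, 1354 and 1094 TPM and 1417, 1843 and 1918 TPM. CDH1, E-cadherin, was at 11.2, 5.07 and 10.6 TPM, far below the 240.2 ± 13.6 TPM in RT4. GRHL2 and ESRP1, regulators of the epithelial state, were at 0, 0 and 0 TPM and 0, 0 and 0.125 TPM and lower. Of 38 mesenchymal genes tested, 6 were higher and 23 lower, with a median of -1.75, and 4 were depleted (CD44, ITGA3, ITGA5 and ANXA1). VIM, the intermediate filament vimentin, was at 3.09, 3.65 and 0.764 TPM against a median of 2934. RT4 had a mean as low (0.859 ± 0.769 TPM in RT4), and the groups overlapped. FN1, fibronectin, which hepatocytes also secrete, was among the 6 that were higher, at 2235, 1512 and 2422 TPM.

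Markers of the other cell types of liver were mixed. On average in HepG2, 17 of 24 bile duct and progenitor markers and 11 of 24 stellate cell and fibroblast markers reached 1 TPM. So did 10 of 27 macrophage, leukocyte and red cell markers. Of 22 bile duct and progenitor markers tested, 11 were higher and 5 lower, with KRT19 at 301 ± 73.6 TPM (SD, n = 3), SOX9 at 85.9, 77.3 and 118 TPM, and KRT7 and MUC1 at 1.04, 0.486 and 0 TPM and 0, 0 and 0 TPM. Of 24 stellate cell and fibroblast markers tested, 7 were higher and 8 lower, beside 26.5% and 23.1% of all genes. PDGFRA, DES and HAND2 had no reads. The endothelial list had 1 of 23 genes at or above 1 TPM on average, PECAM1, at 19.5, 1.66 and 1.8 TPM, and 7 without reads. PECAM1 and CDH5 were higher in replicate 1 than in the other HepG2 libraries, and without it 4 members of the list were higher in place of 7, with a median of -0.76 in place of 0.34. Of 27 macrophage, leukocyte and red cell markers, 14 had no reads in HepG2, among them C1QA, SPI1 and TYROBP. Of the 13 that could be tested, 8 were higher and 2 lower. LYZ, lysozyme, was enriched, at 994, 966 and 1738 TPM against 9.76 ± 3.99 TPM in Caco2.

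Interferon and antigen presentation genes were more often lower than higher. Of 32 tested, 6 were higher and 11 lower, beside 26.5% and 23.1% of all genes. B2M, the invariant chain of class I molecules, was at 275, 181 and 240.4 TPM against 484 or more elsewhere (log2 difference -2.17 ± 0.19 (SE), adjusted p = 2.96e-10). ISG15, an interferon-induced modifier, went the other way, at 58.6, 114 and 59.3 TPM.

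Mitochondrial transcripts were high in HepG2, while the nuclear genes that serve mitochondria were called higher about as often as genes in general, 26.5% of which were. All 13 protein genes of the mitochondrial chromosome were above every other library in TPM before rescaling, for example MT-CO1 at 121000, 62870 and 62070 TPM against at most 16600. Within the mitochondrial counts alone, MT-CO1 took 30.67%, 30.4% and 30.94% in HepG2 and 30.47% to 43.41% elsewhere. Of 35 nuclear genes that copy, transcribe or process mitochondrial DNA and RNA, 8 were higher, 3 lower and 24 had no call (median 0.30). POLRMT, the mitochondrial RNA polymerase, was at 411, 428 and 306 TPM and at most 100.8 elsewhere, and SLIRP, which stabilises mitochondrial messengers, at 1152, 1082 and 859.8 TPM and at most 561. TFB1M, which methylates mitochondrial ribosomal RNA, was enriched at 94.5, 140.4 and 116.0 TPM against 35.1 ± 3.47 TPM in SK-Mel 24, though not when a length trend was fitted. TFAM, the packaging factor of mitochondrial DNA, had no call, at 9.69, 7.86 and 8.43 TPM. Of 38 nuclear genes of oxidative phosphorylation, 11 were higher and 3 lower (median 0.16). With a length trend for each library these became 5 and 7, with a median of -0.12, so no direction held for this list.

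Cell cycle genes showed no direction that held across settings. Of 30 tested, 1 was higher, UBE2C, and 6 were lower, with 23 between (median -0.35). With the P number as a block 7 were higher and 3 lower (median 0.28), and with the length trend 2 and 5 (median -0.06). MKI67, a marker of dividing cells, was at 14, 20.5 and 12.8 TPM in HepG2 and between 1.43 and 62.8, with a median of 30.3, in the other libraries. UBE2C, TOP2A and CDC20, which act in mitosis, were lowest in HepG2 replicate 1, at 301, 754 and 428 TPM for UBE2C. FOXM1, the transcription factor of mitotic genes, was lower, at 19, 16.8 and 11.8 TPM.

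Set against Caco2 alone, the most frequent next line among enriched genes, HepG2 was higher in most secreted proteins and lower in most epithelial genes. The plasma protein list had 21 members higher and 1 lower than Caco2 (median log2 difference 6.14), coagulation 19 and 0 (4.84), and complement 16 and 1 (3.85). Liver transcription factors had 17 higher and 2 lower (1.42). Of 31 amino acid and urea genes tested, 13 were higher and 7 lower (0.49), and of 22 bile duct markers 7 and 8 (-1.05). Over all genes tested, 22.2% were higher and 24.1% lower than in Caco2, and the median was -0.07. These comparisons use the same HepG2 libraries as those with the mean of all lines, of which Caco2 is 1.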

How the data were processed

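RNA selected by poly-A tail in 27 libraries, 3 per line, was read from 1 deposited table per library. Tools named by the submitters' processing notes are kallisto 0.43.1 and CASAVA 1.8, with the build GRCh 38. The annotation release is not given in the sources used here. By their headers, the deposited tables give 3 values per transcript: an estimated count, which need not be whole, a TPM, and an effective length in bases. Deposited estimated counts and TPM of 159887 of 176241 transcripts, those matched to GENCODE 29, were summed to 34584 genes with pandas 2.3.3 in Python 3.11.15, and counts were rounded. Genes of the mitochondrial chromosome were set aside before scaling, and TPM were rescaled to the same total over nuclear genes.

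Libraries were grouped by the cell line label. All 27 entered 1 fit in edgeR 4.0.16 (R 4.3.3, quasi-likelihood, robust, TMM factors, filterByExpr), with 1 coefficient per line, so that lines share the estimate of spread (biological coefficient of variation 24.2%). P-values were adjusted by Benjamini and Hochberg over the 17280 genes. HepG2-enriched or HepG2-depleted genes passed 8 one-sided tests, adjusted on the largest p, with a 4-fold margin. Named genes are ALB, APOA1 and APOB, the 12 with the greatest margin in each direction at 5 TPM or more, in each list the 4 highest in HepG2, the 3 with the largest rise, the 3 with the largest fall and up to 4 without a call, and the liver transcription factors. Some items that this rule names are not reported here. Other genes, list members included, were named after their values were seen. The members and lists were chosen with earlier results of these data known. Floors of 3 counts and 95% exact intervals cover counting error only. The fit was tested on simulated counts. Alternatives used DESeq2 1.42.0, other scalings and filters, and left-out libraries or lines. What the P numbers in the titles mean is not stated, and 1 alternative took them as a block. Removing nuclear copies of mitochondrial genes and fitting a length trend were chosen after seeing the data.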

Additional observations from a re-analysis of the deposited data

How the results depend on the processing

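Over the alternatives run, most counts of called genes stayed within 1.5 times their values in the report. Counts by gene list stayed so in 2266 cases and moved in 74, where a count of 0 was allowed a change of 1 member. Levels depended more on the rescaling of TPM. With TPM as deposited, the HepG2 mean moved by at least the SD of the HepG2 libraries for 156 of 194 named genes. The exceptions among counts over all genes follow. Treating the 24 other libraries as 1 group gave 2442 genes higher in place of 4582, a setting that changes both the error and the mean compared. That setting also turned 4 named genes from higher to lower in value, with a CDH1 log2 fold change of -2.593, a CYP1A1 log2 fold change of -0.821, an FBP1 log2 fold change of -4.895 and a SPINK1 log2 fold change of -2.919. None of the 4 was called lower. CDH1, FBP1 and SPINK1 passed the limit on the log2 difference and not that on adjusted p. Adding the P number of the titles as a block gave 437 enriched genes in place of 692, 407 of them the same genes. Dropping the 4-fold margin gave 1615 enriched and 1490 depleted genes in place of 692 and 346, and leaving out Caco2 gave 538 depleted genes, both by construction. No paired analysis was possible because the replicate numbers were given in accession order and pair no libraries across lines.

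Without HepG2 replicate 1, 606 of the 692 enriched and 298 of the 346 depleted genes kept their call, and 4 genes called in the report were called in the opposite direction. An offset for effective length turned 2 such calls. A length trend fitted for each library kept 642 and 266, and DESeq2 kept 626 and 308. Setting the nuclear copies of mitochondrial genes aside kept 675 and 344. The median log2 difference over all genes, -0.13 in the report, was -0.56 with the others as 1 group, -0.32 without a filter on low counts, -0.23 without HepG2 replicate 1, -0.01 with DESeq2 and 0.03 with the length trend. The share of higher calls among all calls, 53.4%, moved by over 10 points only with the others as 1 group, to 43.1%. Genes under about 3 counts in a line cannot be ranked at this depth, and the 3 HepG2 libraries had fewer nuclear counts than the other lines.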

Other observations

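Several liver genes outside the lists were also enriched in HepG2. The genes named here were all chosen after their values were seen. With the P number of the titles as a block, A2M and NR5A1 were no longer enriched, and ANXA2 and CD9 no longer depleted. CD9 was also not depleted with DESeq2 or its size factors. A2M, a broad protease inhibitor of plasma, was at 2537, 3748 and 4025 TPM in HepG2, and the highest of the other libraries had 354. ASGR1 and ASGR2, the chains of the receptor by which hepatocytes clear glycoproteins, were at 515, 317 and 281.1 TPM and 546, 708 and 737 TPM, against 14.5 ± 5.15 TPM in Caco2 and 66.9 ± 7.82 TPM in Caco2. SELENOP, the selenium carrier, was at 227.8, 162 and 246 TPM and at most 52.2 elsewhere. SERPINF1, an inhibitor of vessel growth, was at 1212, 1717 and 1772 TPM and at most 49.2 elsewhere. GAMT, the last enzyme of creatine synthesis, was at 303, 468 and 301 TPM and at most 58.1, and FTCD, which breaks down histidine, at 135, 161 and 111 TPM and at most 9.02.

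Some enriched genes are not known for the liver. PGC, a pepsinogen of the stomach, was at 647, 656 and 1071 TPM in HepG2 and at most 14.6 elsewhere (floored log2 difference 13.74, adjusted p = 6.12e-24). NR5A1, the nuclear receptor of steroid-producing glands, was at 44, 47 and 45.8 TPM and at most 0.268. MIXL1, a homeobox gene of early endoderm and mesoderm, was at 79.3, 81.8 and 76.6 TPM and at most 0.5. NR5A1 and MIXL1 varied little between the HepG2 libraries, while PGC was highest in replicate 3. DPPA4, a gene of early embryonic cells, was at 77.3, 2.9 and 2.46 TPM and at most 0.49 elsewhere. Its mean level rested on replicate 1, but it was also enriched without that replicate.

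Isozymes of glycolysis were depleted beside isozymes that were not. PFKM and PFKP, the muscle and platelet forms of phosphofructokinase, were at 0.261, 0.325 and 0.626 TPM and 3.26, 0.849 and 2.07 TPM, against 27.2 ± 5.31 TPM in RT4 and 48.4 ± 9.89 TPM in U2-OS at the lowest. PFKL, the liver form, had no call, at 33.8, 35.5 and 21.7 TPM and a log2 difference of -0.38. Its HepG2 mean of 30.3 TPM was under the lowest mean of another line, 34.0 ± 6.6 TPM in A549. The median of the other libraries was 52.3 TPM, and the groups overlapped. LDHA, the other subunit of lactate dehydrogenase, was at 574, 794 and 653 TPM beside the near absence of LDHB, and had no call. Its log2 difference of 0.76 was positive although the median of the other libraries, 1980 TPM, lay above HepG2, and the lowest line was at 20.4 ± 3.47 TPM in U251. Among abundant surface and cytoskeletal genes, CD81 was at 1.77, 1.07 and 0.192 TPM against 249.8 ± 29.9 TPM in U2-OS at the lowest, CD9 at 6.14, 1.89 and 4.13 TPM against 34.5 ± 2.73 TPM in U251, TMSB4X at 27.2, 10.7 and 18.8 TPM against 987 ± 248 TPM in Caco2, and ANXA2 at 106, 122 and 133 TPM against 1094 ± 200.8 TPM in SK-Mel 28. All 4 were depleted, and their HepG2 values did not overlap those of any other line.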
